A study of Mus musculus with 12 samples.

Results

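The 36 genes described here encode the contractile apparatus, the calcium handling machinery and the anaerobic energy supply of fast skeletal muscle fibres. Mouse skin carries such fibres in a thin striated muscle sheet beneath the dermis. In those fibres a nerve impulse opens calcium channels in the transverse tubule and the sarcoplasmic reticulum, calcium binds troponin on the actin filament, and myosin heads then pull on actin until calcium is pumped back. Fast fibres use the heavy chains encoded by Myh1, Myh2 and Myh4, fast forms of troponin and light chains, the calcium pump Atp2a1 and the calcium buffer parvalbumin, and they draw ATP from phosphocreatine and glycogen.

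The genes were taken by symbol from the annotation of the arrays, which held 53 probes for all 36 of them among 39429 distinct probes. Of the 53 probes, 52 passed the filter on dim probes, and all 36 genes kept at least 1 probe among 22134 genes tested. The probe left out was 1 of 2 for Smpx, and it was well above background on 2 of the 12 arrays. The brightest kept probe stood for each gene, and for all 36 genes that probe was well above background on 12 of 12 arrays, with 0 saturated. By role, 14 genes belong to the filaments, 6 to the Z-disc, 9 to calcium handling and 6 to metabolism, and Trim72, a membrane repair gene, stands alone.

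Gene expression was measured on 12 dual-colour arrays in 4 groups of 3 male C57BL/6 mice of about 8 weeks. Skin with a sutured incision of 1 cm received an intradermal injection of PBS or of 100 nmol of a miR-29b mimic, a synthetic double of the microRNA, when the wound was 72 h old. The other 2 groups had no wound and were given PBS or an antimiR, an oligonucleotide made to bind the microRNA and block it, also at 100 nmol. Pieces of treated skin of 20 to 100 mg were taken 24 h after the injection, and nothing in the labels says how deep they were cut. The labels call the 3 samples of a group biological replicates. No group received a control oligonucleotide. An effect of miR-29 and an effect of injecting any oligonucleotide therefore cannot be told apart in either comparison with PBS. Skin RNA was read in Cy5 against a universal mouse reference RNA in Cy3, so each value is a log2 ratio of skin over reference, and values of different probes are not set against each other.

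Between 65.6 and 73.8% of the probes on an array had a Cy5 signal clearly over background, and the median signal was 3.67 to 5 times the background. The arrays lay on 3 slides of 4. Incised PBS arrays 1 to 3 shared slide 1 with mimic array 1, mimic arrays 2 and 3 shared slide 2 with intact PBS arrays 1 and 2, and intact PBS array 3 shared slide 3 with antimiR arrays 1 to 3. Intact PBS array 3 stood apart, with a median correlation across genes of 0.921 to the other arrays of its group, against 0.939 or more for the 11 others. The score of hair follicle markers was 4.4 on intact PBS array 2 and between -0.49 and -0.1 elsewhere. Both are named below where they bear on a value. Of 10 keratinocyte markers, 10 passed the filter.

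The agents act on the miR-29 family, whose 3 mature forms share 1 seed, the bases that pair with target transcripts. They are printed from the RefSeq annotation of GRCm38.p6, 5′ to 3′, with bases 2 to 8 in capitals, because they are what the mimic copies and the antimiR is directed against.
mmu-miR-29a-3p: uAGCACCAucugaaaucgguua
mmu-miR-29b-3p: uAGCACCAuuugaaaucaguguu
mmu-miR-29c-3p: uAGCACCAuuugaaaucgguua

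Of the 36 genes, 23 had a promoter in the RefSeq table of GRCm38.p6, with 27 start sites in all. The 250 bases before each start were searched on both strands for the E-box CANNTG, bound by MyoD-type factors, for the MEF2 and CArG boxes, bound by MEF2 and by serum response factor, and for the TATA box TATAAA. A MEF2 box was found before 5 of 27 starts (18.5%), those of Myh1, Myh4, Pgam2, Pvalb and Ttn, and before 2.92% of all 32851 starts in windows of the same length. A CArG box was found before 4 of 27 starts (14.8%), those of Acta1, Ldb3 and Myh4, against 1.47% of all starts. Of these 4, 2 are starts of Ldb3 whose windows overlap and hold the same box, so the box was found in 3 of 23 genes. An E-box stood before 20 of 27 starts (74.1%), against 66.2% of all starts, and the TATA box before 4 (14.8%), against 12.4%. A match describes the letters and shows neither binding nor a cause. The sequences before Myh1, Myh4 and Acta1 are shown because these genes carry the heavy chain and actin results below. Matches are in capitals, and the MEF2 box of Myh1 and of Myh4 overlaps a TATAAA on the other strand. They lie at chr11:67199852-67200101 on the plus strand, chr11:67237562-67237811 on the plus strand and chr8:123894776-123895025 on the minus strand of GRCm38.p6, in that order.
Myh1: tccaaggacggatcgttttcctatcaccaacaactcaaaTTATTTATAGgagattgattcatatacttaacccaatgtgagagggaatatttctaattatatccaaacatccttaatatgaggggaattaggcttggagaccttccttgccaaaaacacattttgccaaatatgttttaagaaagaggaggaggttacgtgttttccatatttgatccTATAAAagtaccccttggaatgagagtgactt
Myh4: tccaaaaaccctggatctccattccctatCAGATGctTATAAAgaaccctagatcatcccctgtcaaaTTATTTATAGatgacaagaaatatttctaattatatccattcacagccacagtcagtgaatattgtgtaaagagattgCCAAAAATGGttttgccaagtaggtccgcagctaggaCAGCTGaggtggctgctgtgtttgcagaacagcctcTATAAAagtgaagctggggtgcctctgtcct
Acta1: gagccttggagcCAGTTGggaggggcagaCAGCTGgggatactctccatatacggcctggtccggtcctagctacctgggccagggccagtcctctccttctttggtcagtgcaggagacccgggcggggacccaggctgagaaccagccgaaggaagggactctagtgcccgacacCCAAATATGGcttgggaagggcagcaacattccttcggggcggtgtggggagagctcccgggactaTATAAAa

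The mimic was compared with PBS in incised skin to ask how these genes differ at a wound given the mimic. All 36 genes had a lower mean with the mimic, with a median log2 fold change of -0.64 and a range from -1.37 (Pgam2) to -0.35 (Mb). The median of all genes tested was 0, and 50.5% of them were negative. After Benjamini-Hochberg adjustment over all genes, limma called 6 of the 36 genes lower and 0 higher (16.7%), where 0.348% of all genes were called lower and 0.194% higher, 0.542% in all. The mimic and PBS arrays did not overlap in 34 of the 36 genes, all lower with the mimic (94.4%), where 11.5% of all genes did not overlap and were lower, 12.3% did not overlap and were higher, and 23.8% did not overlap in either direction. Mylk2, a myosin light chain kinase, and Trim72 were the 2 that overlapped. In whole skin a loss of muscle fibres from the piece and less RNA per fibre cannot be told apart.

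**Figure D1:**
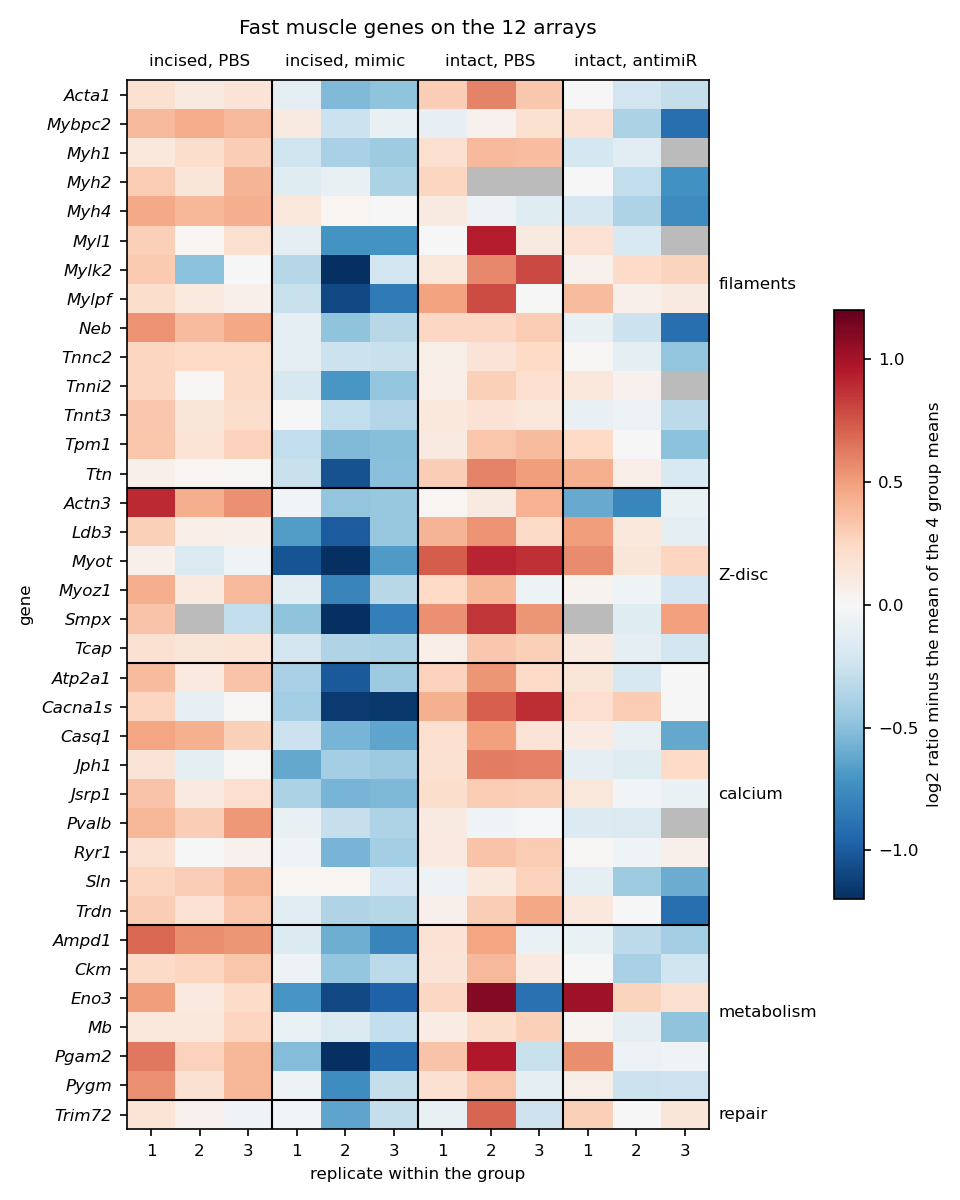
Log2 ratio of each of the 36 genes (rows, grouped by role) on each of the 12 arrays (columns, by group and replicate), minus the mean of the gene's 4 group means. Colours end at 1.2 in each direction, grey marks a spot left out as an outlier, and the 3 mimic columns are blue in nearly every row while antimiR array 1 is paler than antimiR arrays 2 and 3.

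Among the filament genes the fast heavy chain Myh1 was called. Its log2 ratios were 6.39, 6.47 and 6.56 on incised PBS arrays 1 to 3, and 6.02, 5.87 and 5.83 on mimic arrays 1 to 3. The highest mimic array lay below the lowest PBS array, and Myh1 fell by 0.56 ± 0.09 on the log2 scale (limma standard error, n = 3 per group, adjusted p = 0.033), a reduction to 0.676 of the PBS level. The other 2 adult fast heavy chains did not pass. Myh2, the chain of fast oxidative fibres, stood at 6.57, 6.41 and 6.67 with PBS and at 6.12, 6.17 and 5.88 with the mimic, a difference of -0.49 ± 0.17 (limma adjusted p = 0.3). Myh4, the chain of the fastest fibres, stood at 6.29, 6.24 and 6.27 with PBS and at 5.97, 5.86 and 5.83 with the mimic, a difference of -0.38 ± 0.13 (limma adjusted p = 0.25). In both genes the groups did not overlap. These heavy chain genes are near-identical neighbours on chromosome 11, so their probes may share signal. The median over the 14 filament genes was -0.57, with a range from -0.86 (Mylpf, the fast regulatory light chain) to -0.38 (Myh4).

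Among the calcium genes 3 of 9 were called, and the 9 had a median of -0.65. Jsrp1, which links the reticulum to the voltage sensor of the tubule, read 5.09, 4.85 and 4.95 with PBS and 4.37, 4.19 and 4.21 with the mimic. It fell by 0.71 ± 0.09, the smallest p of the 36 genes (limma adjusted p = 0.012). The buffer Pvalb read 4.8, 4.7 and 4.92 with PBS and 4.31, 4.13 and 4.03 with the mimic, and fell by 0.65 ± 0.09 (limma adjusted p = 0.026). The fast calcium pump Atp2a1 read 4.94, 4.68 and 4.9 with PBS and 4.17, 3.55 and 4.13 with the mimic, and fell by 0.89 ± 0.17 (limma adjusted p = 0.047). Mimic array 2 was the low array for Atp2a1, and in all 3 genes the groups did not overlap. Cacna1s, the voltage sensor itself, differed by -0.97 ± 0.2 without passing (limma adjusted p = 0.065), as did the calcium store protein Casq1 at -0.87 ± 0.17 (limma adjusted p = 0.061). The release channel Ryr1 differed by -0.42 and Sln, a small inhibitor of the pump, by -0.37.

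In metabolism and at the Z-disc 1 gene each was called. Ampd1, the muscle AMP deaminase, read 3.69, 3.56 and 3.53 with PBS and 2.84, 2.42 and 2.21 with the mimic, and fell by 1.1 ± 0.17 (limma adjusted p = 0.027). Its level with the mimic was 0.465 of that with PBS. Myot, a Z-disc protein that binds actinin, read 7.33, 7.1 and 7.22 with PBS and 6.24, 5.65 and 6.59 with the mimic, and fell by 1.05 ± 0.2 (limma adjusted p = 0.048). Without background correction Ampd1 differed by -0.98 (limma adjusted p = 0.042) and Myot by -0.94 (limma adjusted p = 0.051). With the processed signals of the extraction program, which replace both the background correction and the dye normalization, Ampd1 differed by -0.49 (limma adjusted p = 0.33) and Myot by -0.17 (limma adjusted p = 0.81). Larger differences that did not pass were those of the glycolytic enzymes Pgam2 at -1.37 ± 0.3 (limma adjusted p = 0.08) and Eno3 at -1.2 ± 0.4 (limma adjusted p = 0.24). Creatine kinase Ckm differed by -0.56 and myoglobin Mb by -0.35. The medians were -0.92 over the 6 metabolic and -0.86 over the 6 Z-disc genes, among which the actinin Actn3 and the PDZ protein Ldb3 differed by -0.95 and -0.85.

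**Figure D2:**
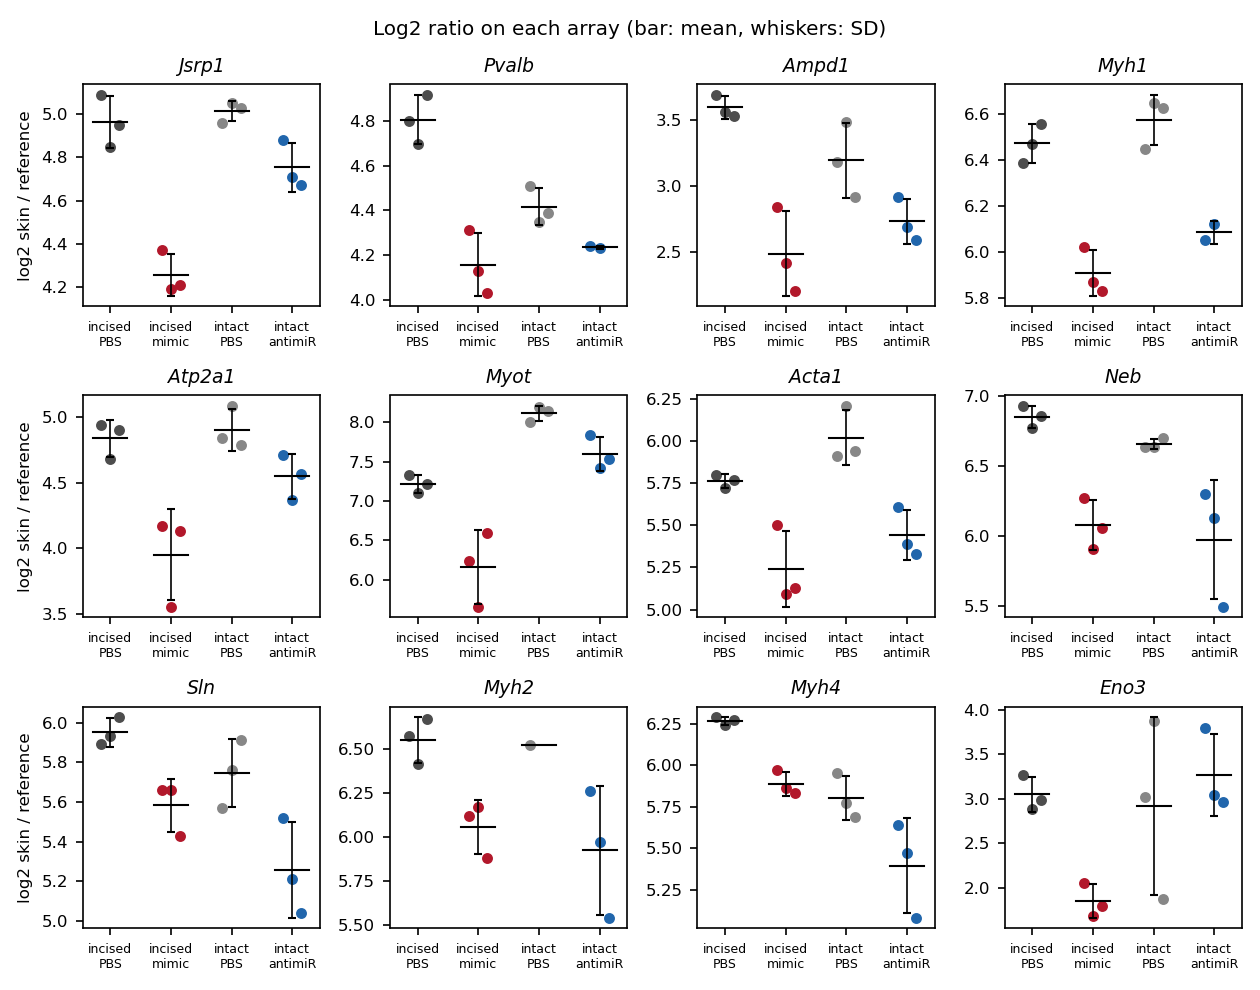
Log2 ratio of skin over reference on each array for 12 of the genes, with 4 groups of 3 arrays on the horizontal axis, a bar at the group mean and whiskers of 1 SD. The vertical axes differ between panels and do not start at 0. In Jsrp1, Pvalb, Myh1 and Ampd1 the 3 mimic points lie below the 3 incised PBS points, and Eno3 spreads from 1.88 to 3.87 in intact PBS skin.

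The calls were less stable than the direction. With slide as a fixed block, where only mimic array 1 shares a slide with the incised PBS arrays, the median was -0.43 with all 36 genes negative, while 0 of the 36 and 0 of all 22134 genes were called by limma (1569 of all genes had an unadjusted p under 0.05). On slide 1 alone mimic array 1 was below the mean of the 3 PBS arrays in 36 of 36 genes, with a median of -0.43, where 48.4% of all genes were below. This sets 1 mouse against 3, and genes that largely vary together between mice are not separate observations. The median was -0.83 for mimic array 2 and -0.64 for mimic array 3, both from slide 2, so the slide and the mouse cannot be told apart as sources of that gap. Leaving out incised PBS array 1, incised PBS array 3 or mimic array 2 left 0 of the 36 genes called, leaving out incised PBS array 2 or mimic array 3 left 1, and leaving out mimic array 1 left 4. The median stayed between -0.76 and -0.55 in these fits. With the spread of log ratios made equal between arrays, 3 genes were called and the median was -0.46. For the fits without 1 array and with equal spread, the share of all genes called is not given here. Those counts therefore cannot be read as particular to these genes.

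The antimiR was compared with PBS in intact skin to ask how these genes differ without a wound when the antimiR is given. Here 34 of the 36 genes had a lower mean with the antimiR, and the median was -0.36, against 0.01 over all genes. Limma called 4 of the 36 genes lower and 0 higher (11.1%), where 4.36% of all genes were called lower, 5.03% higher and 9.4% either way. The groups did not overlap in 19 of the 36 genes, all lower with the antimiR (52.8%), where 11.7% of all genes did so, 14% did not overlap and were higher, and 25.7% did not overlap in either direction. Counting only genes with all 6 values, 15 of 30 did not overlap (50%), where 11.5% of all such genes did not overlap and were lower. The 2 genes with a positive difference were Eno3 at 0.34 ± 0.4 and Trim72 at 0.02 ± 0.22. With the spread of log ratios made equal between arrays, 17 of the 36 genes were called, all lower, and the median was -0.5, so the number of calls here depended strongly on scaling. The share of all genes called in that fit is not given here, so the 17 cannot be read as particular to these genes.

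Of the 4 called genes, 3 belong to the filaments. Myh1 read 6.45, 6.65 and 6.63 on intact PBS arrays 1 to 3 and 6.05 and 6.12 on antimiR arrays 1 and 2, with no value on antimiR array 3. It fell by 0.49 ± 0.1 (limma adjusted p = 0.015). Acta1, the actin of the thin filament, read 5.91, 6.21 and 5.94 with PBS and 5.61, 5.39 and 5.33 with the antimiR, and fell by 0.58 ± 0.13 (limma adjusted p = 0.017). Neb, the ruler protein of the thin filament, read 6.64, 6.64 and 6.7 with PBS and 6.3, 6.13 and 5.49 with the antimiR, and fell by 0.68 ± 0.18 (limma adjusted p = 0.034). AntimiR array 3 was the low array for Neb. The other gene was the pump inhibitor Sln, which read 5.57, 5.76 and 5.91 with PBS and 5.52, 5.21 and 5.04 with the antimiR and fell by 0.49 ± 0.13 (limma adjusted p = 0.038). In all 4 genes the groups did not overlap.

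The other 2 heavy chains differed without passing. Myh4 read 5.95, 5.77 and 5.69 with PBS and 5.64, 5.47 and 5.08 with the antimiR, a difference of -0.41 ± 0.13 (limma adjusted p = 0.073). Myh2 had 1 value with PBS, 6.52 on array 1, and read 6.26, 5.97 and 5.54 with the antimiR, a difference of -0.59 ± 0.25 (limma adjusted p = 0.18). By role the medians were -0.36 for the filaments, -0.38 for the Z-disc, -0.47 for calcium and -0.33 for metabolism. The Myh2 value sets 3 arrays against 1, with the spread taken from the other groups, and was -0.24 with outlier spots kept (limma adjusted p = 0.54). Leaving out antimiR array 2 left 0 of the 36 genes called, leaving out intact PBS array 2 left 1, and leaving out intact PBS array 3, the array that stood apart, left 2 with a median of -0.4 and 36 of 36 genes negative. Leaving out antimiR array 1 gave 9 calls, all lower. For the fits without 1 array and with slide as a block, the share of all genes called is not given here. Within slide 3 the mean of the antimiR arrays lay below intact PBS array 3 in 31 of 35 genes, with a median of -0.35, which sets 3 mice against 1. With slide as a block 3 genes were called, Cacna1s and Myh1 lower and Eno3 higher at 1.38 (limma adjusted p = 0.048).

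**Figure D3:**
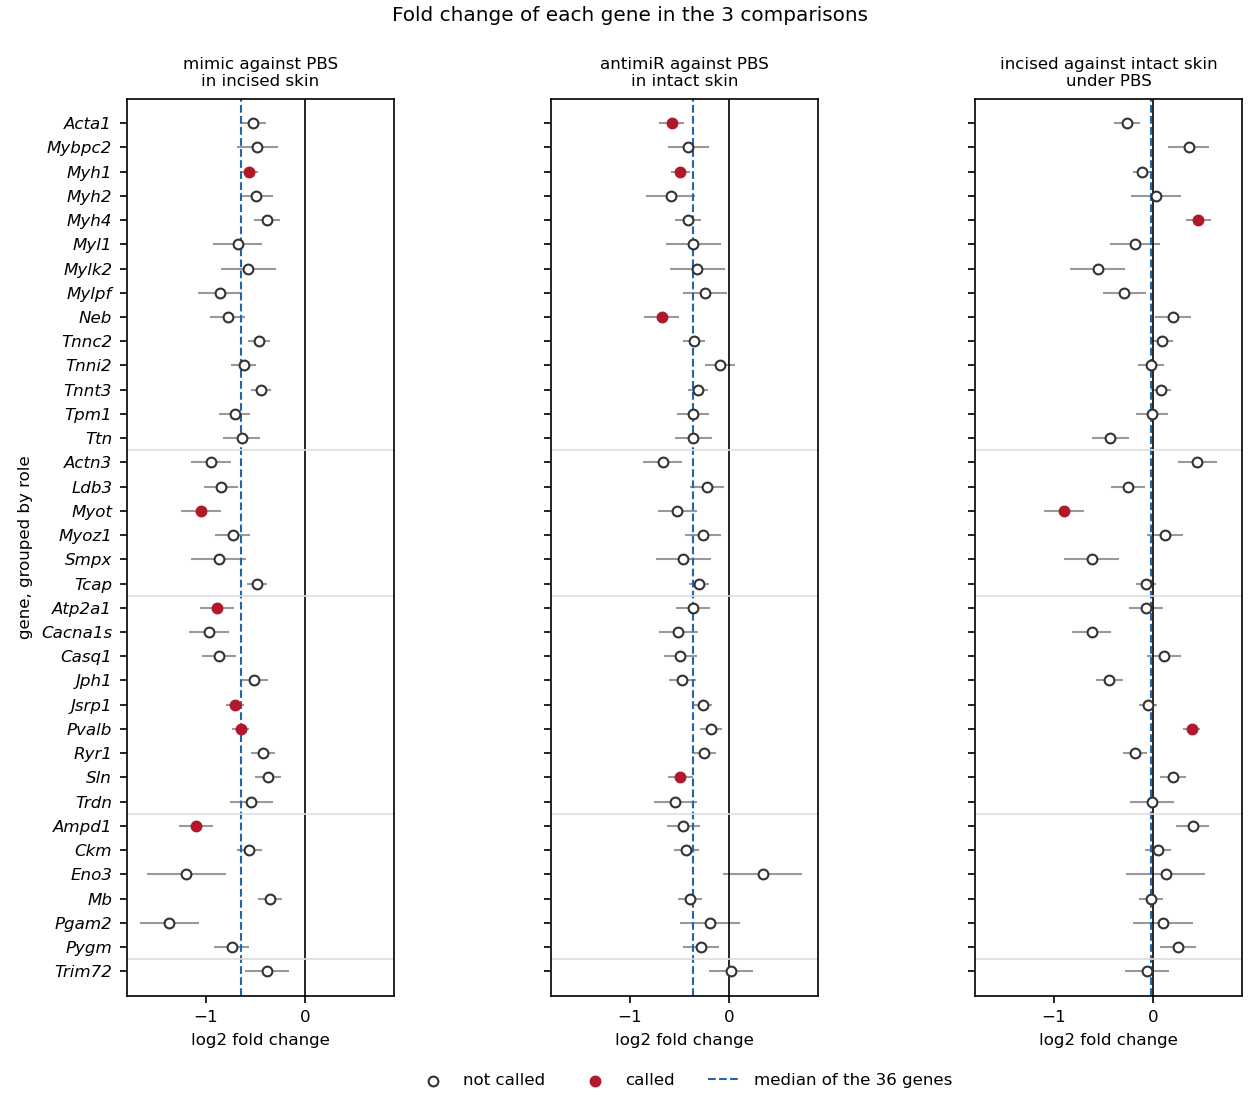
Log2 fold change (horizontal axis, with 1 limma standard error) of each of the 36 genes (vertical axis, grouped by role) in the 3 comparisons; filled points were called and the dashed line is the median of the 36 genes. All points lie left of 0 for the mimic, 34 of 36 for the antimiR, and 20 of 36 for wounding.

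The mimic and antimiR comparisons share no array, so their effects could be set against each other in 1 term of the fit. The mimic was given only to incised skin and the antimiR only to intact skin. Agent and wound state therefore cannot be told apart in that term. The median of mimic effect minus antimiR effect was -0.3, with 30 of 36 genes negative, against -0.02 over all genes. Limma called 0 of the 36 genes in that term, where 1.07% of all genes were called, and 8 (all negative) had an unadjusted p under 0.05, where 14.2% of all genes did in either direction. The 2 smallest p values were those of Jsrp1 at -0.45 ± 0.13 (limma adjusted p = 0.13) and Pvalb at -0.47 ± 0.14 (limma adjusted p = 0.16). The intervals of the heavy chains were wide, from -0.37 to 0.23 for Myh1, from -0.37 to 0.43 for Myh4 and from -0.58 to 0.79 for Myh2 (95%, log2). The difference between the effects was sensitive to processing, since its median was -0.03 with slide as a fixed block, -0.11 in the authors' deposited table and 0.01 with equal spread between arrays.

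Incised and intact skin under PBS were compared to ask what the wound itself did to these genes. The 36 genes were split, 16 with a higher and 20 with a lower mean in incised skin, and the median was -0.02, against 0 over all genes. Limma called 2 higher and 1 lower (8.33%), where 9.81% of all genes were called higher and 5.3% lower, 15.1% in all. The groups did not overlap in 12 of 36 genes (33.3%), 6 higher and 6 lower, where 19.9% of all genes did not overlap and were higher and 15% lower, 34.9% in all. The number of calls was thus below the share over all genes. Myh4 read 6.29, 6.24 and 6.27 in incised skin and 5.95, 5.77 and 5.69 in intact skin, and rose by 0.46 ± 0.13 (limma adjusted p = 0.035). Pvalb read 4.8, 4.7 and 4.92 in incised skin and 4.51, 4.35 and 4.39 in intact skin, and rose by 0.39 ± 0.09 (limma adjusted p = 0.023). Both genes are typical of the fastest fibres, and in both every incised array lay above every intact array. The second Pvalb probe differed by 0.15 ± 0.29 (limma adjusted p = 0.77), so the Pvalb call held for 1 of 2 probes. The mean over both probes gave 0.58 ± 0.3 (limma adjusted p = 0.22), outside the range of the 2 probes. The second probe had no value on intact PBS array 1, where the first probe alone, with a lower log2 ratio, made the mean. That mean therefore cannot bear on the call. The Myh4 call ended in 5 and the Pvalb call in 4 of the 6 fits without 1 array.

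Myot went the other way, at 7.33, 7.1 and 7.22 in incised skin and 8, 8.19 and 8.15 in intact skin, and fell by 0.9 ± 0.2 (limma adjusted p = 0.014). That fall was absent with the processed signals and in the deposited table, where the difference was 0.01 in each. Values of the deposited table follow the processed signals closely, so these are not 2 separate checks. Myh1 differed by -0.11 ± 0.09 (limma adjusted p = 0.45) and Myh2 by 0.03 ± 0.25 (limma adjusted p = 0.95), the latter against the single intact PBS value. Incised PBS and intact PBS arrays never shared a slide. With slide as a fixed block, estimated through the mimic and antimiR arrays, the median was -0.32 with 31 of 36 genes negative and 0 genes called, so wounding and slide cannot be told apart for these genes without leaning on the treated arrays. The number of calls ranged from 1 to 5 when 1 array was left out, with the 5 reached without intact PBS array 1. It was 1 without incised PBS array 1 or 3 and 1 without intact PBS array 2 or 3. The share of all genes called in these fits and in the slide fit is not given here. This comparison shares its PBS arrays with both others.

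Several of the genes were read by more than 1 probe, and some of these did not move alike. Neb had 3 kept probes, each of 60 bases, which are printed 5′ to 3′ in the order of the gene because the middle one gave the largest antimiR difference of any probe of the 36 genes. They lie at chr2:52097549-52097608, chr2:52077301-52077360 and chr2:51992837-51992896 on the minus strand of mm9.
Neb probe 1: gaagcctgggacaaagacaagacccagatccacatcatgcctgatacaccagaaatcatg
Neb probe 2: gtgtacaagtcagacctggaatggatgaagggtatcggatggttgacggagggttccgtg
Neb probe 3: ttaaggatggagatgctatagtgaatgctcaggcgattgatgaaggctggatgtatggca

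Probe 2 of Neb, which the annotation ties to an Ensembl transcript, read 3.79, 4.33 and 3.91 with PBS and 2.05, 1.82 and 1.75 with the antimiR in intact skin. It fell by 2.14 ± 0.19 (adjusted p = 0.00013 in limma's fit over 28799 probes). Probe 1 fell by 0.68 ± 0.17 in that fit (limma adjusted p = 0.03), and probe 3, nearest the 3′ end, differed by -0.33 ± 0.15 (limma adjusted p = 0.19). The mimic differences of the 3 probes were -0.78, -1.2 and -0.66, of which that of probe 2 passed (limma adjusted p = 0.026). The Neb call with the antimiR thus held for probes 1 and 2 and not for probe 3. The mean over the 3 probes, which includes the -2.14 of probe 2, differed by -1.05 (limma adjusted p = 0.0019). No test compared the probes.

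Ttn, the spring of the sarcomere, had 4 kept probes with antimiR differences of -0.82, -1.13, -0.58 and -0.36 from the 5′ to the 3′ end, of which the middle 2 passed (limma adjusted p = 0.041 and 0.016). Its mimic differences were -0.78, -0.62, -0.53 and -0.64. Trdn, which anchors the calcium store protein at the release channel, had mimic differences of -1.16, -0.54 and -0.45 along the gene and antimiR differences of -0.68, -0.54 and -0.63, the last of which passed (limma adjusted p = 0.016). Tpm1, a tropomyosin with forms in muscle and in other cells, had 5 kept probes. The 2 probes of the transcript NM_001164248 differed by -0.71 and -0.83 with the mimic, the second passing (limma adjusted p = 0.042), while the 3 probes of other transcripts differed by -0.04, -0.13 and -0.03. The positions of those 2 probes overlap, so they are not separate readings of the transcript. With the antimiR the same 2 probes differed by -0.36 and -0.45 and the other 3 by -0.61, -0.03 and -0.12, none passing. No test compared the Tpm1 probes. The Ldb3 probe nearer the 5′ end, which did not stand for the gene, fell with the mimic, by 0.99 ± 0.15 (limma adjusted p = 0.026). The second Pvalb probe differed by -1.05 ± 0.26 (limma adjusted p = 0.13), and the mean over both Pvalb probes by -0.85 ± 0.3 (limma adjusted p = 0.28). The standard error of that mean is pooled over the 4 groups. It is widened by spots of 1 probe missing on intact PBS array 1 and antimiR array 3, so its p cannot bear on the call. The 2 probes of Cacna1s differed by -0.93 and -0.97 with the mimic, those of Myl1 by -0.59 and -0.68, and those of Tnnt3 by -0.44 and -0.51.

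**Figure D4:**
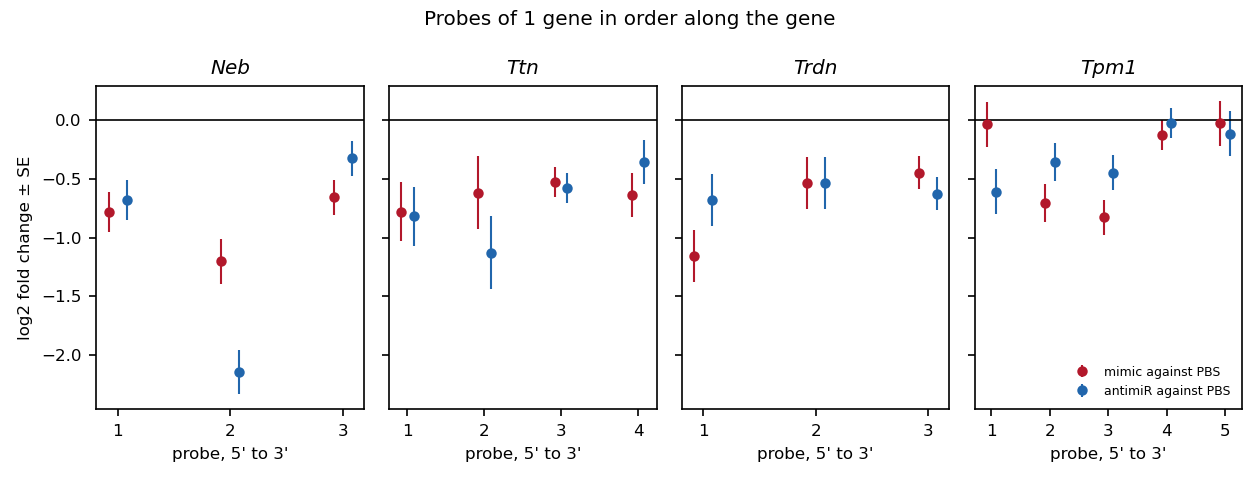
Log2 fold change with 1 limma standard error (vertical axis) of each kept probe of Neb, Ttn, Trdn and Tpm1 in order from the 5′ to the 3′ end of the gene (horizontal axis, order only, not to scale), for the mimic and the antimiR. Probe 2 of Neb lies at -2.14 with the antimiR, and probes 1, 4 and 5 of Tpm1 lie near 0 with the mimic.

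The arrays of a group kept an order in part across the genes. Mimic array 1 was the highest of its group in 30 of 36 genes and mimic array 2 the lowest in 23. AntimiR array 1 was the highest in 25 of the 31 genes with 3 values, and antimiR array 3 the lowest in 20. Intact PBS array 2 was the highest in 23 of 35 genes, and incised PBS array 1 in 27 of 35. Over all genes no array of a group was highest in more than 36.2% or lowest in more than 43.2%. Most of the genes thus shared the highest array of a group. Intact PBS array 3 had no common rank, being highest in 10, in the middle in 12 and lowest in 13 of 35 genes. The median SD of a gene over 3 arrays was 0.1 in incised PBS, 0.22 in mimic, 0.16 in intact PBS and 0.21 in antimiR skin, where the medians over all genes were 0.11, 0.12, 0.16 and 0.12. Eno3 had the largest SD, 1 in intact PBS skin, from 3.02, 3.87 and 1.88 on arrays 1 to 3.

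Muscle genes outside the 36 were read from lists written with earlier results of these data in view. With the mimic, where 0.348% of all genes were called lower, limma called 3 of 29 other sarcomere genes lower (10.3%, median -0.57), namely the slow myosin-binding protein Mybpc1 at -0.91, the protease Capn3 at -0.81 and the M-line gene Myom3 at -0.66. It also called 4 of 17 other calcium and coupling genes lower (23.5%, median -0.53), Stac3 at -1.19, Cacna2d1 at -0.97, Camk2b at -0.9 and Hrc at -0.89. Limma called 0 of 16 further metabolic genes (median -0.9), of which 14 had an unadjusted p under 0.05, where 12.1% of all genes did. It called 1 of 12 slow fibre genes lower (8.33%, median -0.56), the light chain Myl3 at -0.69. Of 16 regeneration and denervation genes it called 0 (median -0.28), with 11 negative and 5 positive, and 2 had an unadjusted p under 0.05.

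With the antimiR limma called 4.36% of all genes lower and 5.03% higher. The shares called in the other sarcomere, calcium and slow fibre lists were nearer to these than with the mimic. That of the regeneration list was not. Of 16 further metabolic genes 0 were called (median -0.39), with 15 negative and 1 at an unadjusted p under 0.05. Limma called 2 of 29 other sarcomere genes lower (6.9%, median -0.25), Myom2 at -0.49 and the ubiquitin ligase Trim63 at -0.78, and 1 of 17 calcium and coupling genes higher (5.88%, median -0.36), Camk2a at 0.63. It called 3 of 16 regeneration and denervation genes lower (18.8%, median -0.53), Myf6 at -1.38, Myh3 at -1.34 and Cdkn1a at -0.82. Of 12 slow fibre genes limma called 0 (median -0.13), and 2 had an unadjusted p under 0.05, where 23.9% of all genes did.

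With wounding, 9.81% of all genes were called higher and 5.3% lower. Limma called 7 of 12 slow fibre genes higher and 1 lower in incised skin (66.7% in all, median 0.65), with Tnnc1 at 3.31 and Tnni1 at 2.98, the slow troponins, and the slow heavy chain Myh7 at 1.68. It called 4 of 16 regeneration genes higher (25%), among them the fusion gene Mymk at 2 and the embryonic heavy chain Myh3 at 1.81. Of the 29 other sarcomere genes 1 rose, Pdlim7 at 0.69, and 4 fell, among them Lmod2 at -1.46 and Nrap at -1.1. Those 5 are 17.2% of the list, near the 15.1% called over all genes.

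Markers of other skin cells were read beside these results, and their calls are limma's in the same fit. Over all genes limma called 0.194% higher and 0.348% lower with the mimic, and 5.03% higher and 4.36% lower with the antimiR. With wounding it called 9.81% higher and 5.3% lower. An unadjusted p under 0.05 was reached by 12.1% of all genes with the mimic and 23.9% with the antimiR. The 10 fibroblast markers had a median of -1.05 with the mimic, 3 called lower (30%). Their per-array scores were 0.17 to 0.46 in incised PBS skin and -0.75 to -0.36 in mimic skin. The list includes collagen genes, and whether it follows the number of fibroblasts was not tested. With the antimiR the median of the fibroblast markers was 0.07, with 0 called and 5 at an unadjusted p under 0.05, 3 higher and 2 lower. The 8 macrophage markers had a median of 0.17 with the mimic (0 called, 3 at an unadjusted p under 0.05). Their median was 1.04 with the antimiR (4 called higher, 50%) and 1.28 with wounding (6 called higher, 75%). Their scores ran from -1.62 to -0.41 in intact PBS, from -0.74 to 0.16 in antimiR, from 0.28 to 0.45 in incised PBS and from 0.7 to 0.81 in mimic skin. Of 8 neutrophil markers 1, 2 and 3 were called higher in the mimic, antimiR and wound comparisons (12.5, 25 and 37.5%), with medians of 0.15, 0.21 and 1.04. The 6 Schwann cell markers had a median of -1.09 with wounding, 4 called lower (66.7%), and medians of 0.06 and -0.02 with the mimic and the antimiR.

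The 10 adipocyte markers had a median of -0.45 with the mimic and of -0.45 with the antimiR, with 0 called and 1 at an unadjusted p under 0.05 in each, and scores of 1.14 on incised PBS array 2 and 0.98 on intact PBS array 3. In those 2 comparisons the medians were 0 and 0.32 for 8 smooth muscle markers, -0.03 and 0 for 8 cardiac, -0.19 and -0.21 for 10 keratinocyte, -0.02 and 0.18 for 7 endothelial and -0.03 and -1.55 for 7 hair follicle markers. The -1.55 rests on intact PBS array 2, where the hair follicle score was 4.4, against -0.48 and -0.21 on intact PBS arrays 1 and 3. With the antimiR limma called 0 of these 7 markers, where 9.4% of all genes were called. The score of the 36 muscle genes ran from 0.15 to 0.3 in incised PBS, from -0.55 to -0.14 in mimic, from 0.18 to 0.39 in intact PBS and from -0.22 to 0.08 in antimiR skin. The part of these other cells in the muscle results was not tested.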

How the data were processed

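Each of the 12 scanner files gave mean spot and local background intensity in both dyes, extracted with Agilent Feature Extraction 11.5.1.1, per the file headers. The authors also deposited a log2 table of skin over reference by gene name. Each of its 12 columns matched best the log2 ratio of processed signals of its own array (Pearson r from 0.996 to 0.999 across genes, column medians from -0.04 to 0). Its normalization is not given in the sources used here. Values were computed with limma 3.58.1 in R 4.3.3: normexp background correction with offset 50, loess within arrays giving control spots weight 0, without scaling between arrays. Outlier spots were dropped and repeat spots of 1 probe averaged. The filter asked for a Cy5 signal well above background on 3 or more of the 12 arrays and a value in every group, which left 28799 of 39429 probes. The brightest kept probe stood for a gene. Group means were fitted over all 12 arrays with lmFit and eBayes; a call needed an adjusted p under 0.05 (Benjamini-Hochberg over 22134 genes, 2-sided), and errors are limma standard errors. The number of arrays limits the precision. The fit was tested on simulated data. The genes, the lists and the comparisons were chosen with earlier results of these data known. All 36 genes could be named, with full values for those called in a comparison (at most 8 each way), for Myh1, Myh2 and Myh4, and for the 2 of smallest p where none was called; of other lists, up to 3 genes of smallest p. Hrc and the further probes were added after their values were seen. The alternatives were other background correction, processed signals, scaling between arrays, the dim-probe filter, the mean over probes, slide or replicate as a block, the deposited table, and each array left out. Outlier spots kept, the probe nearest the 3′ end and equal spread between arrays were chosen after seeing the data.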

Additional observations from a re-analysis of the deposited data

How the results depend on the processing

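The direction of the 36 genes held better than their calls. In the mimic comparison the genes called, 6 as reported, numbered 1 with processed signals, 0 with slide as a fixed block, 3 with slide as a random block, 1 in the deposited table, 3 with equal spread and 0 to 4 when 1 array of the compared groups was left out. Their median, -0.64, was -0.43 with slide as a fixed block and -0.46 with equal spread. In the antimiR comparison the 4 called became 2 with processed signals, 17 with equal spread and 0 to 9 when 1 array was left out. For wounding the 3 called became 0 with processed signals, slide as a fixed block or the deposited table, and 1 to 5 when 1 array was left out; the median was -0.32 with slide as a fixed block. The median difference of effects, -0.3, was -0.03 with slide as a fixed block, -0.11 in the deposited table and 0.01 with equal spread. The cause was not tested, and the share of all genes called in each of these fits is not set beside the counts here. Aquantile scaling leaves log ratios as they are and so gave the same values.

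Some single genes changed sign. For wounding Myot was at 0.01 with processed signals and 0.01 in the deposited table, and Myh2 at -0.06 with slide as a fixed block, -0.26 with equal spread and -0.03 to 0.1 when 1 array was left out (lowest without incised PBS replicate 3). In the difference of effects Myh1 was at 0.1 with slide as a fixed block, 0.12 in the deposited table, 0.15 with outlier spots kept and 0.38 with equal spread. There Myh2 was at -0.03 with the replicate block, -0.25 with outlier spots kept and -0.09 (without antimiR replicate 3) to 0.27 (without antimiR replicate 1) when 1 array was left out, and Myh4 was at -0.02 with processed signals, -0.02 in the deposited table, and -0.13 to 0.15 when 1 array was left out, turning negative without mimic replicate 1, intact PBS replicate 1 or antimiR replicate 3. Of the other values of single named genes, 331 kept their side of the threshold, 108 lost and 3 gained a call.

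The labels do not say that the replicate numbers pair the samples. Across genes, the deviations of same-numbered arrays from their group means correlated at 0.29, -0.33 and -0.37 in the mimic comparison. They correlated at 0.12, -0.12 and 0.05 in the antimiR comparison and at 0.11, -0.24 and -0.43 for wounding. With 3 arrays per group these values cannot decide whether samples were paired. With the replicate block 4, 3, 3 and 0 genes were called in the 4 comparisons.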

Other observations

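Split by brightness of the probe, the 12 brightest of the 36 genes had a median of -0.59 with the mimic, the 12 in the middle -0.67 and the 12 dimmest -0.86. The same 3 sets had medians of -0.36, -0.4 and -0.41 with the antimiR. Mimic arrays 2 and 3 lay below intact PBS arrays 1 and 2 of the same slide in 36 of 36 genes, with a median of -0.77, a comparison in which wound and agent both differ.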
